A study of Mus musculus with 2 samples.

Results

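The 4 chemokine genes *Ccl2*, *Ccl7*, *Ccl8* and *Ccl12* were followed through the leukocytes of the mouse aortic adventitia, the outer layer of the arterial wall. They were found by their symbols in the deposited count matrices, where they are 4 of 55386 features, and all 4 had counts in both libraries. They were chosen by their measured levels in macrophages of these same libraries, so those levels are given as a description and without a test.

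All 4 encode small secreted proteins of the CC chemokine family, which guide leukocytes along a gradient by way of receptors on the leukocyte surface. CCL2, CCL7 and CCL12 are ligands of CCR2, the receptor that lets Ly6C-high monocytes leave the bone marrow and enter inflamed tissue. CCL7 also binds CCR1 and CCR3, and mouse CCL8 is known as a ligand of CCR8. In the vessel wall, CCL2 is best known for drawing monocytes into the artery in hypertension and atherosclerosis.

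The cells were CD45-positive and came from *Rank*Cre *Rosa26*eYFP mice about 16 weeks old, with the adventitia as their source. In the mice of both groups, Cre made from the *Rank* (*Tnfrsf11a*) gene switches on a yellow fluorescent protein that all descendants of a *Rank*-expressing cell keep, and its transcript is called *Yfp* here. The steady state library pooled 3 untreated animals, and the AngII library pooled 2 animals given angiotensin II, a peptide that raises blood pressure and inflames the vessel wall, at 1.8 µg/kg/min for 10 days. Each condition has 1 library, so condition, library, depth and animals cannot be told apart, there is no replicate error, and the intervals given (95%) cover counting error only.

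After the filter of the study's methods, 306 of 346 barcodes with a median of 9105 UMIs (unique molecular identifiers, each counting 1 captured transcript) were left at steady state, and 4198 of 4419 barcodes with a median of 1092 UMIs on AngII. No barcode occurred in both libraries. Levels are given in CPM, the UMIs of a gene per 1000000 UMIs of all cells of a class. Shares of cells are given after each cell was thinned to 1000 UMIs, which 303 and 2288 cells could reach. Cells were put into classes from marker genes that do not include the 4 chemokines. Macrophages were further divided by how many of their UMIs came from 12 markers of resident macrophages (*Lyve1*, *Folr2*, *Cbr2*, *Cd163*, *F13a1*, *Gas6*, *Stab1*, *Ltc4s*, *Cd209f*, *Timd4*, *Pf4* and *Mrc1*), with resident macrophages at 80 or more per 10000 and other macrophages below. This makes them ranges of a score and not cell types. Of the 132 macrophages at steady state 13 (9.85%) lay between 60 and 100 per 10000, and 340 of 1962 (17.3%) on AngII.

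The classes carried their defining transcripts. *C1qa*, which encodes a complement chain that macrophages make, stood at 5883 CPM in resident macrophages of the steady state and at 10.7 CPM in lymphocytes, and on AngII at 5364 and 140 CPM. Markers of fibroblasts, smooth muscle, endothelium, red cells and platelets summed to at most 20.4 CPM each in every macrophage class, and no smooth muscle or red cell marker had a UMI among other macrophages at steady state. Chemokine UMIs were also found in lymphocytes on AngII, with 420 CPM of *Ccl8* in those under 2000 UMIs and 49.2 CPM in deeper ones. Lymphocytes are given as the background beside each share.

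The 4 genes lie close together on chromosome 11 (GRCm38, GENCODE M21), all on the plus strand. *Ccl2* (ENSMUSG00000035385.5) spans 82035571 to 82037453, *Ccl7* (ENSMUSG00000035373.2) 82045712 to 82047525, *Ccl12* (ENSMUSG00000035352.3) 82101845 to 82103400 and *Ccl8* (ENSMUSG00000009185.2) 82115185 to 82116799. This stretch of 81229 bases holds 5 protein-coding genes, the fifth being *Ccl11*. No 31-base run of the 4 genes' transcripts occurs in another gene. The minus-strand gene *Gm17268* overlaps *Ccl2* and had 0 UMIs in both libraries.

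*Ccl12* and *Ccl8* lie next to each other, 11784 bases apart, and differed in how their levels compared between the libraries, so the 250 bases before their start sites are shown, from RefSeq on GRCm38.p6, plus strand. The reference table had this sequence for 2 of the 4 genes. Capitals mark TATAAA, the core promoter element, in both genes, and a match to GGAANTTCC, a form of the NF-kB motif, in *Ccl12*.
Ccl8, chr11:82114935-82115184: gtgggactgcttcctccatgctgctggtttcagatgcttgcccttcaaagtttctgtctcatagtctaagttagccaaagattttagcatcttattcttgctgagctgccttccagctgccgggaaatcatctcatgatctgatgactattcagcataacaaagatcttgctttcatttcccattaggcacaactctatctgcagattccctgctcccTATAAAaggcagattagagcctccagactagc
Ccl12, chr11:82101595-82101844: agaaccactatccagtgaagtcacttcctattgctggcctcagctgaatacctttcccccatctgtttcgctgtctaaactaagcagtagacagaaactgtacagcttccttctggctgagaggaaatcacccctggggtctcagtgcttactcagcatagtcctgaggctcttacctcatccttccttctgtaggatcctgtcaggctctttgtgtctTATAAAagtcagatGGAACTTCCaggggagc
TATAAA was found from -32 to -27 in *Ccl8* and from -31 to -26 in *Ccl12*, counted from the start site, and it occurs in 12.4% of the 32851 promoters of the same length. GGAANTTCC was found from -17 to -9 in *Ccl12* and occurs in 0.813% of all promoters. The other 4 motifs searched on both strands, GAAA repeated after 2 unspecified bases (2.98% of promoters), TTCNNNGAA (7.02%), the same with 4 unspecified bases (5.85%) and TGANTCA (6.75%), had no match in either window. A match is a description of the letters and not a site.

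Among the classes, macrophages held most of the transcripts. At steady state, the 132 macrophages held 3834 of the 4292 UMIs of *Ccl2* in all filtered cells, 1897 of 1976 of *Ccl7*, all 288 of *Ccl8* and 583 of 593 of *Ccl12*. On AngII, the 1962 macrophages held 6417 of 8032, 6235 of 7108, 6696 of 7769 and 2406 of 2759. In both libraries, the measured CPM of each of the 4 genes was higher in resident macrophages than in monocytes, dendritic cells, neutrophils, B cells, T cells and the class of NK cells or ILC2, in all 11 alternatives of the processing as well. For *Ccl8* at steady state this was not shown against the 3 neutrophils, whose count of 0 allows up to 281 CPM.

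In resident macrophages of the steady state (106 cells), *Ccl2* was the most abundant of the 4 at 1874.5 CPM (1797 to 1955), followed by *Ccl7* at 1268 CPM (1204 to 1334). *Ccl12* stood at 410 CPM (374 to 448), and *Ccl8* was the lowest at 141 CPM (120 to 164). The intervals of these neighbours in the order do not overlap. On AngII (400 cells) the order was another one, with *Ccl8* first at 2140 CPM (2073 to 2208), *Ccl7* at 1617 CPM (1560 to 1677), *Ccl2* at 1410 CPM (1356 to 1466) and *Ccl12* last at 530 CPM (497 to 564). The transcripts were counted at their 3′ ends, so CPM values of different genes were compared without a correction for length.

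**Figure D1:**
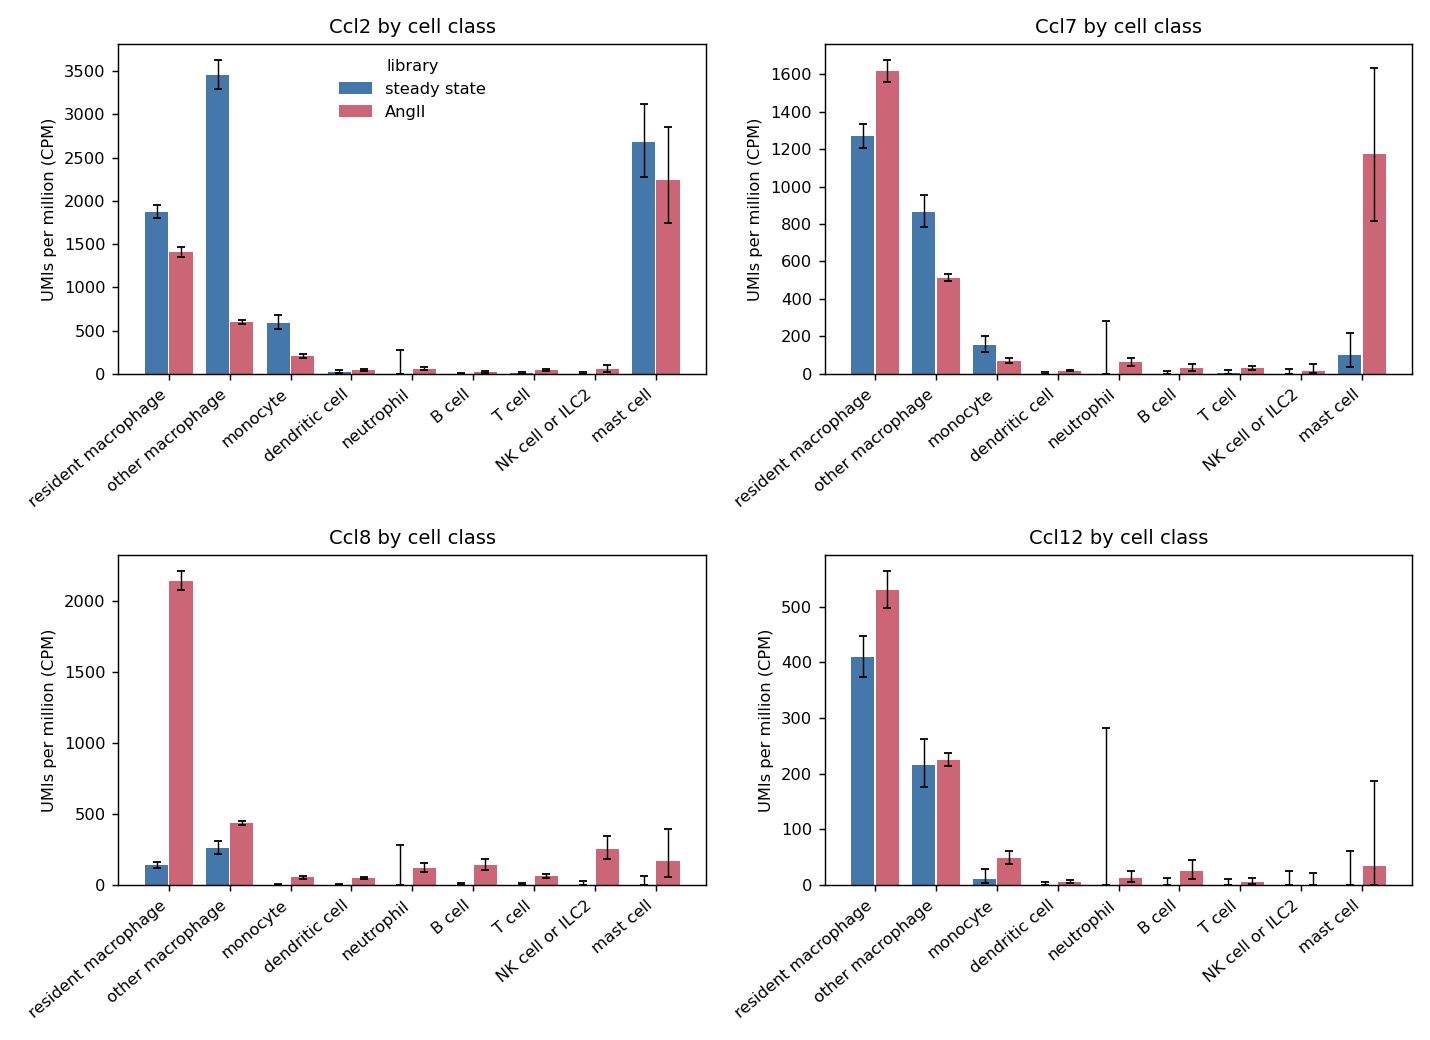
Level of each chemokine gene (CPM, linear axis from 0) in 9 marker-gated cell classes of the steady state and the AngII library, with exact Poisson 95% intervals as error bars. The bars of both macrophage classes stand above those of monocytes, dendritic cells, neutrophils and lymphocytes, *Ccl8* in resident macrophages goes from 141 CPM at steady state to 2140 CPM on AngII, and *Ccl2* is also seen in mast cells.

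The shares of cells followed the levels only in part. At equal depth, 45.7% of 105 resident macrophages of the steady state (36.0 to 55.7) had a UMI of *Ccl2*, 40% of *Ccl7* (30.6 to 50), 16.2% of *Ccl12* (9.72 to 24.7) and 8.57% of *Ccl8* (3.99 to 15.6). Of the 99 lymphocytes there, 0 had a UMI of any of the 4, which allows a share of up to 3.03% when the limit is set at 3 cells. The median depth before thinning was 9801 UMIs in resident macrophages and 6797 in lymphocytes. Without thinning, the 4 shares in resident macrophages were 76.4%, 54.7%, 37.7% and 29.2%.

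On AngII, more resident macrophages held *Ccl8* than at steady state, with 45.6% of 239 cells (39.2 to 52.2). *Ccl7* was found in 55.2% (48.7 to 61.6), *Ccl2* in 52.3% (45.8 to 58.8) and *Ccl12* in 30.1% (24.4 to 36.4). The background in 253 lymphocytes was 7.11% for *Ccl8* (4.27 to 11), 3.95% for *Ccl2*, 2.37% for *Ccl7* and 0.395% for *Ccl12*, at a median depth of 1119 UMIs against 1316.5 in resident macrophages. The unthinned shares in resident macrophages were 60.25%, 65.25%, 63.5% and 35.5% in the same order of genes as the thinned ones. Between the libraries the intervals of the thinned shares were apart for *Ccl8* and overlapped for the other 3 genes.

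Resident and other macrophages stood apart on AngII. In the 1562 other macrophages *Ccl2* was at 601 CPM (582 to 620), *Ccl7* at 513 CPM (496 to 531), *Ccl8* at 436 CPM (420 to 453) and *Ccl12* at 225 CPM (213 to 237). The ratio of resident to other macrophages was 4.91 for *Ccl8* (4.67 to 5.15), 3.15 for *Ccl7* (3.00 to 3.31), 2.36 for *Ccl12* (2.17 to 2.56) and 2.35 for *Ccl2* (2.23 to 2.47). All 4 genes were above 2 times, while 5.4% of the 10976 genes with at least 20 UMIs were (5.55% were lower by over 2 times), and the median ratio of those genes was 1.07. The direction was the same in all 11 alternatives for each gene. At equal depth, 34.0% of 860 other macrophages had a UMI of *Ccl2*, 29.9% of *Ccl7*, 29.7% of *Ccl8* and 14.7% of *Ccl12*, each below the share in resident macrophages and above that in lymphocytes.

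At steady state this contrast was carried by a few cells. *Ccl2* stood at 3461 CPM (3295 to 3633) in the 26 other macrophages, more than in resident ones, a ratio of 0.542 (0.508 to 0.578), but 1126 of its 1634 UMIs came from 1 cell. That cell held 45682 UMIs in all, of which 286 were of *Ccl7* and 0 of *Ccl8* or *Ccl12*. Without it *Ccl2* stood at 1191 CPM in the other macrophages and *Ccl7* at 288 instead of 866 CPM. Another cell of the same class held 104 of 123 UMIs of *Ccl8*, and a different one held 83 of 102 UMIs of *Ccl12*.

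The ratio of resident to other macrophages at steady state was 1.46 for *Ccl7* (1.31 to 1.64), 1.90 for *Ccl12* (1.53 to 2.37) and 0.540 for *Ccl8* (0.425 to 0.687). None of the 4 was past 2 times in either direction, where 14.2% of 7637 genes were higher and 5.12% lower by over 2 times. With the cell that held the most UMIs of the gene left out of each class, the ratio turned to 1.51 for *Ccl2* and 2.34 for *Ccl8*, and it was 3 of the 4 genes that were then over 2 times higher. At equal depth, 40% of 25 other macrophages had a UMI of *Ccl2* (21.1 to 61.3), 24% of *Ccl7*, 4% of *Ccl8* and 4% of *Ccl12*, all with intervals that overlap those of resident macrophages.

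Within each macrophage class the 4 genes were very unevenly spread over cells. Among resident macrophages of the steady state, 9 of 106 cells held 50% of all *Ccl2* UMIs, 8 held that share of *Ccl7*, and 4 cells each held it for *Ccl8* and *Ccl12*. On AngII, the numbers were 15, 12, 8 and 9 of 400 cells in the same order. The highest values in single cells with at least 2000 UMIs were 29555 CPM for *Ccl8* and 17930 CPM for *Ccl7*, both in resident macrophages on AngII, 24649 CPM for *Ccl2* in the steady state cell described above, and 13999 CPM for *Ccl12* in a resident macrophage of the steady state. The leading cells were therefore of different classes and libraries for different genes.

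At the other end, many cells of good depth had none. Of the 150 resident macrophages with at least 2000 UMIs on AngII, 23 had 0 UMIs of *Ccl2*, 25 of *Ccl7*, 48 of *Ccl8* and 52 of *Ccl12*. Of the 103 at steady state, 23, 47, 72 and 64 had none. The median cell held 632 CPM of *Ccl2* at steady state and 667 CPM on AngII, nearly the same value, while for *Ccl7* it held 114 and 852 CPM, for *Ccl8* 0 and 390 CPM, and for *Ccl12* 0 and 205 CPM.

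**Figure D2:**
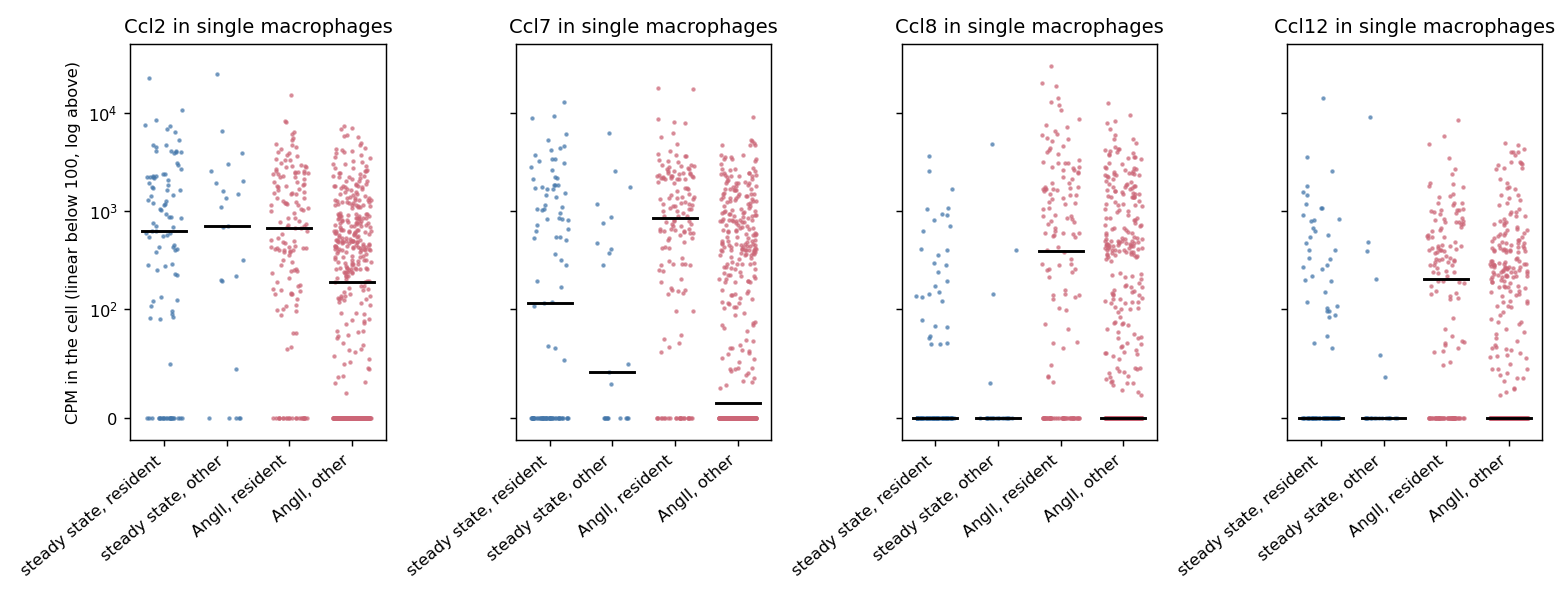
CPM of each chemokine in single macrophages with at least 2000 UMIs (axis linear below 100 and logarithmic above), each point 1 cell and each bar the median, for resident and other macrophages of both libraries. The median *Ccl8* value is 0 in every group but the resident macrophages on AngII, where it is 390 CPM, and single cells reach 29555 CPM.

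The comparison of conditions asks what the same range of macrophages held after AngII. In resident macrophages, the ratio of AngII to steady state was 15.2 for *Ccl8* (13 to 17.9), 1.29 for *Ccl12* (1.16 to 1.45), 1.28 for *Ccl7* (1.20 to 1.36) and 0.752 for *Ccl2* (0.711 to 0.797). Of the 4 genes, *Ccl8* alone was past 2 times, where 6.84% of 9136 genes were higher and 6.63% lower by over 2 times, and the median ratio of all these genes was 1.02. The *Ccl8* ratio stayed between 6.59 and 50.6 in 15 alternatives, which include dropping the top cell of each group. The other 3 genes each changed direction in at least 1 alternative. *Ccl8* also had a higher background on AngII, at 97.9 CPM in lymphocytes (84.2 to 113) against 0 of 744568 UMIs at steady state. With the lymphocyte level subtracted from each library the ratio was 14.5.

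In other macrophages, the same ratio was 1.67 for *Ccl8* (1.4 to 2.02), 1.04 for *Ccl12* (0.851 to 1.29), 0.592 for *Ccl7* (0.534 to 0.658) and 0.174 for *Ccl2* (0.164 to 0.184). There *Ccl2* was past 2 times lower, as were 8.17% of 10589 genes, and none was past 2 times higher, as were 15.5%. The 3 cells named above stand in the steady state values of this comparison. With the top cell of each gene left out, those values were 1191 CPM for *Ccl2*, 288 for *Ccl7*, 42.2 for *Ccl8* and 41.1 CPM for *Ccl12*, so that *Ccl7* was then below the AngII level instead of above it and *Ccl2* stayed above. *Ccl8* and *Ccl12*, at 403 and 204 CPM on AngII without their top cells, were then over 2 times higher there, 2 genes in place of 0. The cells on AngII had a median of 1099.5 UMIs and the 26 at steady state 19376.

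The 2 ranges of macrophages differ in how strongly they carry the resident markers, so each gene was also followed in bands of that marker share. On AngII, *Ccl8* stood at 161 CPM in the 667 macrophages with less than 20 resident-marker UMIs per 10000 and at 572, 839, 561, 1123 and 1611 CPM in the following bands up to 150. It reached 4871 CPM (4622 to 5129) in the 61 cells between 150 and 200, where 560 of 1441 UMIs came from 1 cell, and 3612 CPM (3273 to 3977) in the 28 cells at 200 or more. *Ccl2* and *Ccl7* instead were highest between 80 and 100, at 1859 and 1976 CPM, and stood at 635 and 931 CPM in the highest band. Between 80 and 100, 1 cell held 227 UMIs of *Ccl2* and 263 of *Ccl7*, the most of any resident macrophage on AngII. The measured levels of *Ccl8* were thus highest in another band than those of *Ccl2* and *Ccl7*. How far single cells set these peaks was not tested.

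At steady state, *Ccl8* did not follow the resident markers in this way, with 244, 141 and 71.4 CPM in the 3 highest bands (32, 39 and 29 cells). *Ccl2* was at 1325, 2814 and 1458 CPM in the same bands, *Ccl7* at 955, 1662 and 1306 CPM, and *Ccl12* at 277, 699 and 211 CPM. The lower bands of the steady state held 3 to 8 cells each, and their peaks come from the single cells described above. Single cells weighed on the 3 highest bands as well. In the band with *Ccl8* at 244 CPM, a single cell held 51 of its 76 UMIs. In the band with *Ccl12* at 699 CPM, a single cell held 162 of its 312 UMIs. The top cells there held 167 of 1256 UMIs of *Ccl2* and 136 of 742 of *Ccl7*. How far these cells set the order of the bands was not tested. In the highest band, the ratio of AngII to steady state was 50.6 for *Ccl8* and 0.713 for *Ccl7*. These bands were chosen after the data were seen.

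**Figure D3:**
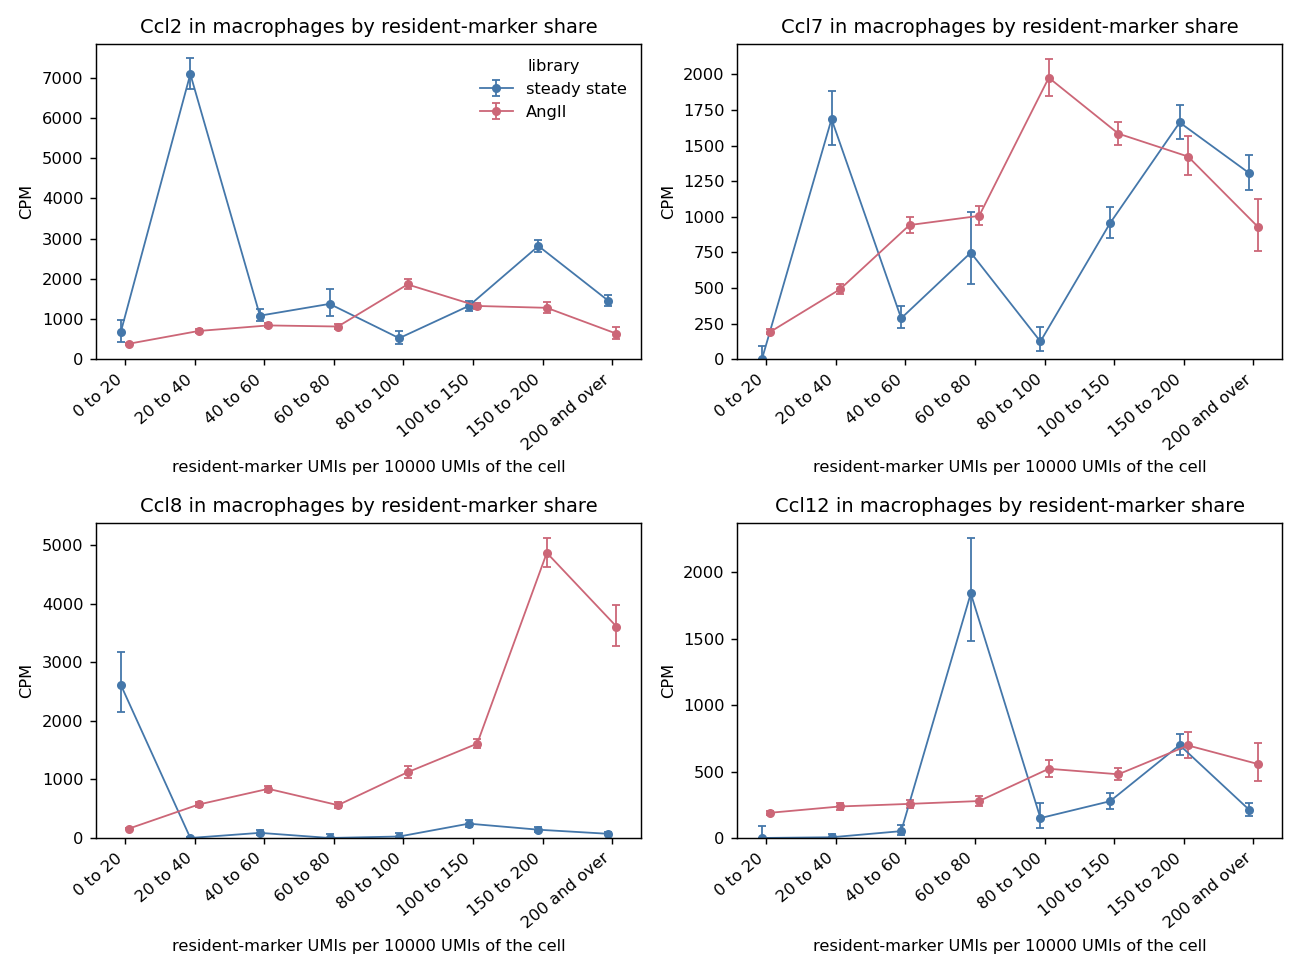
CPM of each chemokine in macrophages against the share of resident-marker UMIs (per 10000 UMIs of the cell), for steady state and AngII, with exact Poisson 95% intervals. On AngII *Ccl8* is highest at 150 to 200 (4871 CPM, with 560 UMIs in 1 cell). *Ccl2* and *Ccl7* are highest at 80 to 100, where 1 cell held 227 and 263 UMIs of them. The steady state peaks below 80 come from bands of 3 to 8 cells. At steady state, single cells also held 51 of 76 *Ccl8* UMIs at 100 to 150 and 162 of 312 *Ccl12* UMIs at 150 to 200.

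Whether the genes were found in the same cells was asked at 1000 UMIs per cell, against the number that the single shares would give if they were unrelated. *Ccl2* and *Ccl7* were found together in 30 of 105 resident macrophages at steady state (28.6%, 20.2 to 38.2), 1.56 times the 19.2 cells for unrelated genes. On AngII they were found together in 89 of 239 (37.2%, 31.1 to 43.7), 1.29 times the 69.0 cells. Of the cells with *Ccl2*, 62.5% at steady state and 71.2% on AngII also had *Ccl7*. This pair was above its unrelated number in all 9 alternatives of each library.

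*Ccl8* did not share this pattern on AngII. It was found with *Ccl2* in 53 resident macrophages, where 57.0 would be given by the single shares (0.930 times), and with *Ccl7* in 57 against 60.2 (0.947 times). *Ccl12* was found with *Ccl2* in 48 against 37.7 (1.27 times), with *Ccl7* in 45 against 39.8 (1.13 times) and with *Ccl8* in 35 against 32.8 (1.07 times). For each of these pairs of *Ccl8* or *Ccl12*, the interval of the share found together held the unrelated share. It was 15.2 to 25.7% against 15.8% for *Ccl2* with *Ccl12*, and 17.1 to 28.0% against 23.9% for *Ccl2* with *Ccl8*. At steady state, only 9 cells had *Ccl8* at this depth, and 5 of them had *Ccl2*. In other macrophages on AngII each of the 6 pairs was above its unrelated number, from 1.18 times for *Ccl2* with *Ccl8* to 1.86 times for *Ccl2* with *Ccl7*. The interval of *Ccl2* with *Ccl8* there still held the unrelated share (9.78 to 14.2% against 10.1%).

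**Figure D4:**
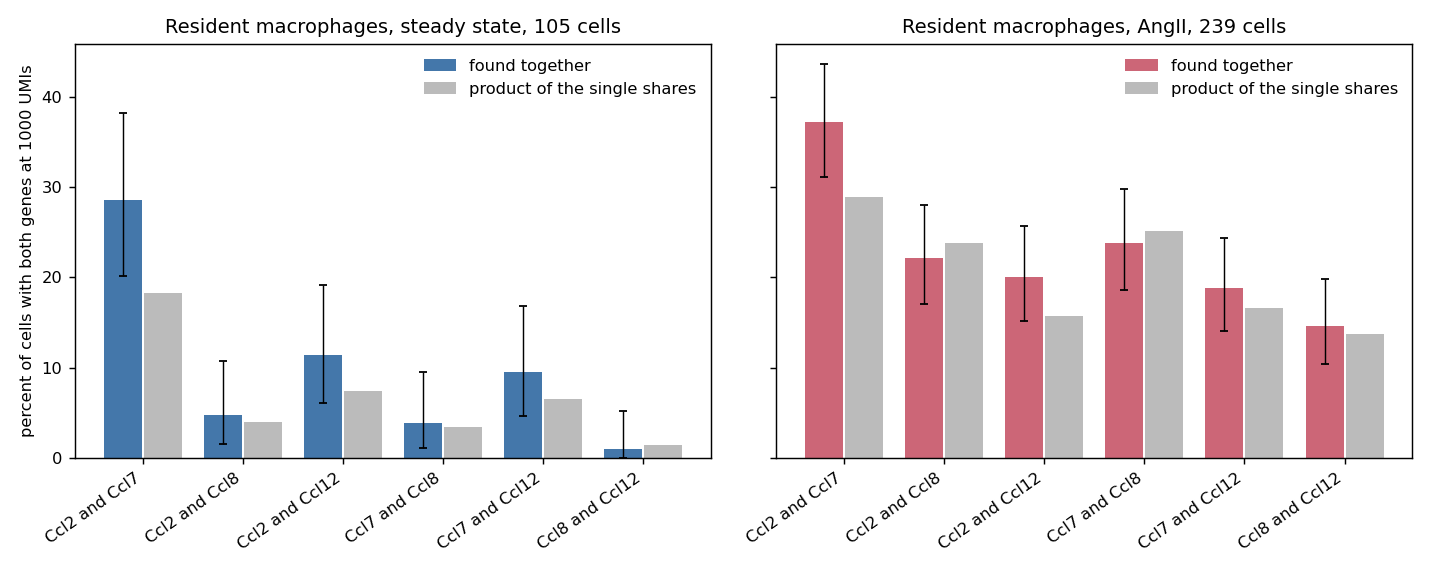
Percent of resident macrophages with a UMI of both genes of a pair after thinning to 1000 UMIs (coloured bars, exact 95% intervals) beside the product of the single shares (grey bars), for both libraries. *Ccl2* and *Ccl7* are found together in 28.6% and 37.2% of cells, above the grey bars. On AngII the bars of *Ccl8* with *Ccl2* or *Ccl7* lie a little below the grey bars, with intervals that hold them.

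The levels within cells were compared as well. Over the 150 resident macrophages with at least 2000 UMIs on AngII, Spearman's rho of the cells' CPM was 0.592 for *Ccl2* with *Ccl7*, 0.311 for *Ccl7* with *Ccl12*, -0.104 for *Ccl7* with *Ccl8* and -0.232 for *Ccl2* with *Ccl8*. Over the 103 at steady state it was 0.577 for *Ccl2* with *Ccl7* and 0.0529 for *Ccl2* with *Ccl8*. All points of a library share its depth and preparation, and cells are not replicates. The cell with the most *Ccl8* on AngII held 560 UMIs of it beside 3 of *Ccl2*, 17 of *Ccl7* and 19 of *Ccl12*, and the cell with the most *Ccl2* held 227 of it beside 263 of *Ccl7*, 86 of *Ccl12* and 0 of *Ccl8*.

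Counting which gene led in each cell gives the mix. Of the 134 resident macrophages on AngII with at least 2000 UMIs and 5 UMIs of the 4 genes, *Ccl8* led in 48 (35.8%), *Ccl2* in 44 (32.8%), *Ccl7* in 34 (25.4%) and *Ccl12* in 8 (5.97%). Of the 73 such cells at steady state, *Ccl2* led in 43 (58.9%), *Ccl7* in 21 (28.8%), *Ccl8* in 5 (6.85%) and *Ccl12* in 4 (5.48%). At equal depth, all 4 genes were found in 17 of 239 resident macrophages on AngII (7.11%) and in 1 of 105 at steady state (0.952%), and none of them in 29 (12.1%) and 39 (37.1%).

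Resident macrophages with and without a given chemokine were then compared at equal depth on AngII. Before thinning, the cells with and without it differed in median depth. The medians were 2505 against 5665 UMIs for *Ccl2*, 3209 against 4268 for *Ccl7*, 3112 against 4146 for *Ccl8* and 5095.5 against 3195 for *Ccl12*. The 109 cells with a *Ccl8* UMI had more *Cd209f*, a lectin receptor among the resident markers, at 312 CPM against 76.9 CPM in the 130 cells without (4.06 times, 1.96 to 9.20), and more *Ccl24*, an eosinophil-attracting chemokine, at 294 against 146 CPM (2.01 times, 1.10 to 3.75). Of the 5 genes of type-2 activation tested, 3 were lower by over 2 times and 1 was higher, the *Ccl24* just named. *Retnla* stood at 459 against 969 CPM (0.473 times, 0.334 to 0.662) and *Mgl2* at 239 against 523 CPM (0.456 times, 0.278 to 0.726). *Arg1*, which encodes arginase, had 2 against 26 UMIs (0.0917 times, 0.0106 to 0.366). *Ccr2* stood at 541 against 915 CPM (0.591 times, 0.425 to 0.815). Over all 2082 genes with at least 20 UMIs, 3.22% were higher and 3.99% lower by over 2 times.

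Cells with *Ccl2* on AngII showed the reverse for *Arg1*, *Mgl2* and *Retnla*. The 125 cells with it had *Arg1* at 192 CPM against 35.1 CPM in the 114 without (5.47 times, 1.88 to 21.7), *Mgl2* at 568 against 202 CPM (2.82 times, 1.74 to 4.72) and *Retnla* at 984 against 465 CPM (2.12 times, 1.52 to 2.98), while 3.65% of genes were higher and 4.03% lower by over 2 times. *Cd163*, a scavenger receptor among the resident markers, stood at 520 against 1000 CPM (0.520 times, 0.377 to 0.711), and in cells with *Ccl8* at 917 against 608 CPM (1.51 times, 1.11 to 2.05). For *Ccl12* (72 cells with, 167 without), *Retnla* was lower (0.366 times, 0.228 to 0.566), as was *Il1b* (0.401 times, 0.229 to 0.666), and *Ccl24* was higher (2.41 times, 1.34 to 4.35), where 2.11% and 4.9% of genes were past 2 times. Of 5 type-2 genes tested for *Ccl12*, 2 were lower and 1 higher by over 2 times. For *Ccl7* none of the genes of the lists was past 2 times, and the background was 3.55% higher and 3.51% lower.

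The same splits were also read at steady state. With *Ccl2* (48 cells against 57) or *Ccl7* (42 against 63), 0 of 4 type-2 genes tested were past 2 times. *Retnla* was lower with *Ccl2* here (0.545 times, 0.465 to 0.637), the opposite of its direction on AngII, and lower with *Ccl7* (0.623 times, 0.530 to 0.730). *Ier3*, an immediate early gene, was at 3.80 times (2.27 to 6.63) with *Ccl2* and 3.00 times (1.87 to 4.91) with *Ccl7*. It was the only 1 of 9 immediate early genes tested past 2 times in each split, with list medians of 1.17 and 1.04. The background was 3.88% higher and 3.26% lower for *Ccl2*, and 2.76% and 4.39% for *Ccl7*. The 17 cells with *Ccl12* had 4 UMIs of *Retnla* against 746 in 88 cells without (0.0278 times, 0.00754 to 0.0714), beside 7.39% of genes higher and 13.3% lower. With *Ccl12*, 2 of 4 type-2 genes and 3 of 11 resident markers tested were lower by over 2 times and 0 higher. With *Ccl8*, found in 9 cells, 6.27% were higher and 21.6% lower, and 1 UMI of *Atf3* stood against 127 in the 96 other cells. Of the genes tested with *Ccl8*, 4 of 9 immediate early and 3 of 4 NF-kB genes were lower by over 2 times and 0 higher.

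Cells with 2 or more of the 4 genes were also set against cells with none, with medians before thinning of 3605 against 7042 UMIs on AngII. On AngII (146 against 29 cells, with 10.4% of genes higher and 5.61% lower), 3 of 11 resident markers tested were higher, *Lyve1* at 3.1 times (1.27 to 9.81), *Ltc4s* at 5.56 times (1.47 to 47.1) and *Cd209f* with 35 UMIs against 0. *Mgl2* had 64 UMIs against 0 and *Ccl24* 38 against 1. At steady state (39 against 39 cells, with 4.2% higher and 4.02% lower), *Ier3* was at 4.15 times (2.24 to 8.30) and *Retnla* at 0.441 times (0.370 to 0.525), and none of the 11 resident markers was past 2 times. *Ier3* was the only 1 of 9 immediate early genes tested past 2 times there.

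The reporter marks descent, but a cell is called *Yfp*- here when no *Yfp* UMI was found in it. *Yfp* UMIs were not confined to macrophages, with 7 of 13 NK cells or ILC2 at steady state and 9 of 30 on AngII. A *Yfp* UMI was found in 83 of 106 resident macrophages at steady state (78.3%, 69.2 to 85.7) and in 114 of 400 on AngII (28.5%, 24.1 to 33.2). *Yfp*+ cells on AngII had a median of 7467.5 UMIs and *Yfp*- cells 977, so the call depends strongly on depth. In CPM the ratio of *Yfp*+ to *Yfp*- resident macrophages on AngII was 2.44 for *Ccl12* (2.09 to 2.86), 1.74 for *Ccl8* (1.62 to 1.87), 1.48 for *Ccl7* (1.37 to 1.61) and 1.33 for *Ccl2* (1.22 to 1.44). Only *Ccl12* was past 2 times, where 3.15% of 7878 genes were higher and 2.16% lower.

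At equal depth, *Ccl12* was found in 39.8% of 98 *Yfp*+ cells (30 to 50.2) and in 23.4% of 141 *Yfp*- cells (16.7 to 31.3), which was the widest gap of the 4. *Ccl2* was found in 52.0% and 52.5%, *Ccl7* in 56.1% and 54.6%, and *Ccl8* in 50.0% (39.7 to 60.3) and 42.6% (34.3 to 51.2). At steady state *Ccl12* was also past 2 times, with 448 CPM in *Yfp*+ and 143 CPM in *Yfp*- resident macrophages (3.14 times, 2.03 to 5.11), where 12.6% of 6685 genes were higher and 4.19% lower. Of those 460 UMIs, however, 162 came from 1 cell, and at equal depth 16.9% of 83 *Yfp*+ and 13.6% of 22 *Yfp*- cells held the gene. *Ccl8* was lower in *Yfp*+ cells there, at 129 against 225 CPM (0.573 times, 0.388 to 0.866). Single cells held 51 of its 132 UMIs in *Yfp*+ and 14 of its 33 UMIs in *Yfp*- cells. At equal depth *Ccl8* was in 7.23% (2.70 to 15.1) and 13.6% (2.91 to 34.9) of them, with overlapping intervals. In other macrophages on AngII (207 *Yfp*+ of 1562 cells, medians of 4053 and 1012 UMIs) the ratio was 2.72 for *Ccl7* (2.53 to 2.91), 1.74 for *Ccl2*, 1.59 for *Ccl12* and 1.44 for *Ccl8*, where 2% of 10403 genes were higher and 1.97% lower by over 2 times. In those of the steady state (18 against 8 cells; 15.4% higher and 7.15% lower) the 3 cells with most of the UMIs were all *Yfp*+.

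**Figure D5:**
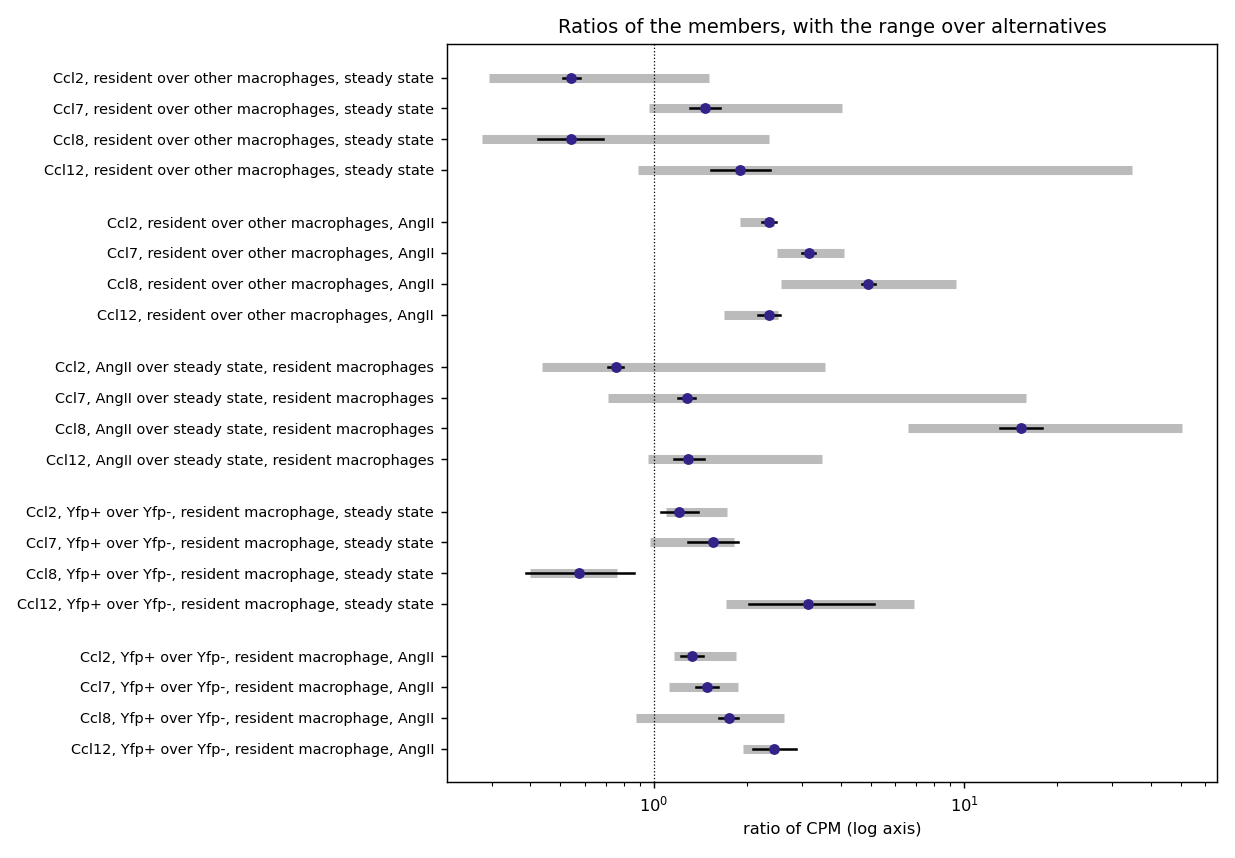
Ratios of CPM for the 4 chemokines (points, log axis) in 5 comparisons, with counting intervals (black lines) and the range over the alternatives of the processing (grey bars). The ratios of resident to other macrophages on AngII, and that of *Ccl8* between AngII and steady state, stay to the right of 1 over the whole grey bar, while those of the steady state macrophage classes cross 1.

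Outside the macrophages, mast cells were the one named class with a *Ccl2* level like that of macrophages. At steady state all 9 mast cells held it, with 3 to 46 UMIs each, at 2676 CPM (2278 to 3122), and 8 of 9 still held it at 1000 UMIs. Their *Ccl7* was at 99.7 CPM, and they held no UMI of *Ccl8* or *Ccl12*. The 6 mast cells with no UMI of *C1qa*, *C1qb* or *C1qc* had *Ccl2* at 4382 CPM (3545 to 5357), found in 6 of 6. The 3 with such UMIs had it at 1715 CPM (1326 to 2182). Those 3 were deeper, at 9977, 17013 and 11500 UMIs against at most 6039. Where the *Ccl2* UMIs came from was not tested. On AngII *Ccl2* stood at 2245 CPM in 23 mast cells (1740 to 2851), of which 3 cells with 67, 172 and 245 UMIs of the mast cell protease gene *Cpa3* held 29, 20 and 15 UMIs of it. The other 20 cells of that class had at most 10 UMIs of *Cpa3*, and 26 of the 35 *Ccl7* UMIs came from 1 of the 3 cells.

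Monocytes had lower levels than resident macrophages, and several of them rested on single cells. At steady state *Ccl2* stood at 594 CPM in 24 monocytes (515 to 681) with 99 of its 205 UMIs in 1 cell, and all 54 UMIs of *Ccl7* were in that same cell, which also held 195 C1q UMIs and lay at 69.3 resident-marker UMIs per 10000. On AngII, 287 monocytes had *Ccl2* at 209 CPM (186 to 233), *Ccl7* at 68.4, *Ccl8* at 53.9 and *Ccl12* at 48.0 CPM, with 112 UMIs of *Ccl2* and 62 of *Ccl7* in 1 cell that held 1 C1q UMI. Without that cell *Ccl2* stood at 136 CPM, and the *Ccl8* UMIs were spread over 65 cells with at most 3 in each. Of the 73 *Ccl12* UMIs, 55 were in 1 nonclassical monocyte. At equal depth *Ccl2* was in 15.0% of 160 monocytes (9.85 to 21.5), above the 3.95% of lymphocytes (1.91 to 7.15), whereas *Ccl7* (3.75%), *Ccl8* (9.38%) and *Ccl12* (0.625%) had intervals that overlapped the background.

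Dendritic cells, neutrophils and lymphocytes held little. In 481 dendritic cells on AngII *Ccl2* was at 43.7 CPM, *Ccl7* at 18.0, *Ccl8* at 46.5 and *Ccl12* at 6.36 CPM, where lymphocytes had 40.1, 29.4, 97.9 and 9.63 CPM. The 26 dendritic cells of the steady state had 14 UMIs of *Ccl2*, 1 of *Ccl7* and 0 of the others. In 192 neutrophils on AngII the genes stood at 59.7, 61.5, 119 and 12.7 CPM, and at equal depth *Ccl2* was in 8.82% (4.64 to 14.9) and *Ccl8* in 9.56% (5.19 to 15.8) of 136 cells. The 3 neutrophils of the steady state held no UMI of the 4 genes, at 13109 UMIs in all. Within the lymphocytes on AngII, *Ccl8* was at 143 CPM in B cells and 62.6 CPM in T cells, and 39 of its 44 UMIs in NK cells or ILC2 came from 1 cell. Cells left unassigned on AngII (804) had *Ccl2* at 439 CPM, with 362 of 965 UMIs in 1 barcode, *Ccl7* at 264, *Ccl8* at 259 and *Ccl12* at 105 CPM.

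The receptors were read from the same cells. *Ccr2*, which binds CCL2, CCL7 and CCL12, was highest on AngII in monocytes at 1475 CPM, followed by other macrophages at 1168 CPM, NK cells or ILC2 at 753 CPM and resident macrophages at 729 CPM. At steady state it was at 1150.45 CPM in NK cells or ILC2, 1142 CPM in other macrophages, 1000.04 CPM in dendritic cells, 550.2 CPM in monocytes, 465 CPM in mast cells and 208 CPM in resident macrophages, with overlapping intervals for the first 3. *Ccr1* was highest in neutrophils in both libraries, at 989 CPM on AngII. *Ccr8* had 0 UMIs in macrophages. In NK cells or ILC2 it had only 5 UMIs on AngII (29.2 CPM, 9.48 to 68.1) and 3 at steady state (20.9 CPM, 4.31 to 61.1). The decoy receptor *Ackr2* had 0 UMIs in every class.

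Other gene lists were read in resident macrophages between AngII and steady state. Among the receptors, *Ccr2* was at 3.51 times (3.06 to 4.03) and *Ccr1* at 2.37 times (1.97 to 2.86), where 6.84% of all genes were higher by over 2 times. Of the 11 immediate early genes, which are also known to be raised by the digestion of tissue, 3 were lower and 0 higher, *Atf3* at 0.222 times, *Jun* at 0.331 times and *Hspa1a* at 0.454 times, beside 6.63% of all genes. Of 11 NF-kB targets tested, 2 were higher, *Il1b* at 3.38 times (2.79 to 4.11) and *Ptgs2*, the inducible cyclooxygenase, at 3.94 times (2.31 to 7.16), with a list median of 0.782.

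Of 9 interferon-stimulated genes tested, 4 were higher, *Irf7* at 6.68 times (3.49 to 14.3), *Oasl1* at 2.65, *Isg15* at 2.24 and *Ifit1* at 2.09 times, with a list median of 1.36. The 7 genes of type-2 activation went both ways. *Retnla* stood at 460 CPM against 7532 CPM at steady state (0.0611 times), *Ccl24* at 0.191 times and *Mgl2* at 0.359 times, while *Ear2* was at 5.62 times, and *Arg1* and *Chil3* had 324 and 65 UMIs against 0 and 0. The resident markers that set the classes were themselves lower in 3 of 12, *Timd4* at 0.161, *Cd209f* at 0.243 and *Lyve1* at 0.355 times, so the same limit held cells with another mix of markers in each library. The neighbour *Ccl11*, an eosinophil-attracting chemokine between *Ccl7* and *Ccl12*, had 19 UMIs in 1 resident macrophage on AngII and 2 in 1 at steady state, and *Ccl1* had 0 in this class.

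Genes with a like pattern over classes were named by Pearson's r of log2(CPM + 10) over the 11 classes of at least 30 cells, among 5155 genes. For *Ccl2* these were *Rin2* (0.985), *Pcyox1*, *Adap2*, *Man1c1* and *Rnase4* (0.978). For *Ccl7* they were *Rnase4* and *Pf4* (both 0.981), *Prxl2b*, *Trim47* and *C1qc* (0.974), and for *Ccl12* they were *Prxl2b* (0.986), *Rnase4*, *Ccdc152*, *Gas2l3* and *Slc16a7* (0.964). *Pf4* and *C1qc* are among the markers that set the macrophage classes, so their levels over classes are in part fixed by the gate. *Ccl8* stood apart, with *Nceh1* (0.915), *Cept1*, *Arhgef2*, *Slc38a10* and *Lmna* (0.881). Among the 4 chemokines themselves r was 0.971 for *Ccl2* with *Ccl7*, 0.976 for *Ccl7* with *Ccl12* and 0.940 for *Ccl2* with *Ccl12*, and 0.717 to 0.777 for *Ccl8* with the others. Mast cells of both libraries, where *Ccl2* was high without *Ccl12*, had under 30 cells and were left out. So were the other macrophages of the steady state. The classes of a library share its depth and free RNA, so these values are a description.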

How the data were processed

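Single CD45-positive cells were counted with a droplet assay (10x 3′ v3.1) in 1 library per condition. The authors ran Cell Ranger 3.1.0 on GRCm38.p6 extended by eYFP, and the deposited values are raw UMI counts. The filter required 300 to 6500 detected genes and allowed mitochondrial UMIs up to 5%. The members and gene lists were chosen with earlier results of these data known.

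Each cell was scored for 8 lineages as the mean of its marker values (natural log of 1 plus UMIs per 10000, over their 99th percentile, at most 1). The best lineage needed 1.25 times the next score and 2 distinct markers, and other cells stayed unassigned (12 and 804). The gate's limits were settled after the data were seen. Doublets were not removed.

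CPM have exact Poisson, ratios conditional binomial and shares Clopper-Pearson intervals. Cells were thinned to 1000 UMIs once (seed 11). Genes with at least 20 UMIs over both groups entered the counts of genes past 2 times. A cell with 1 UMI was *Yfp*+. The lists are receptors, neighbours, immediate early, NF-kB, interferon-stimulated and type-2 genes, given as counts with values for some members, chosen after their values were seen; 1 receptor is not reported here. A share of 0 has a limit of 3 cells. Splits by single chemokines, mast cells without C1q and the single cells named were chosen after their values were seen. With 1 library per condition no test was run. Steps were tested on simulated data. The work used pandas 2.3.3, SciPy 1.17.1 and NumPy 2.4.6 in Python 3.11.15, with figures from Matplotlib 3.10.9.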

Additional observations from a re-analysis of the deposited data

Results flagged for a closer look

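The ratio of resident to other macrophages lay on opposite sides of 1 in the libraries for 2 genes, a difference that was not tested. For *Ccl2* it was 0.542 at steady state and 2.35 on AngII, and for *Ccl8* it was 0.540 and 4.91. At steady state 1126 of 1634 *Ccl2* UMIs and 104 of 123 *Ccl8* UMIs of other macrophages were in 1 cell each.

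Barcodes that the filter removed, which entered no comparison, also held the 4 genes, above the upper bound of the lymphocytes in the same library. The 40 such barcodes of the steady state, 36 of them with over 5% mitochondrial UMIs, had *Ccl2* at 724 CPM, *Ccl7* at 509, *Ccl8* at 49.8 and *Ccl12* at 49.8 CPM. The 221 on AngII, 180 of them over that limit and 36 with more than 6500 genes, had *Ccl2* at 619, *Ccl7* at 557, *Ccl8* at 542 and *Ccl12* at 209 CPM. The 3 C1q genes summed to 5502 and 6282 CPM in these barcodes.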

How the results depend on the processing

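Over 42 values and 22 alternative settings, 5 of them chosen after the data were seen (cells with at least 2000 UMIs and 4 bands of resident markers), 316 values stayed within the stated spread, 112 moved and 13 turned direction. No paired analysis was possible because each condition has 1 library, and no replicate could be left out.

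Resident over other macrophages at steady state, where 0 genes were over 2 times higher, gave 1 with all deposited barcodes, with a looser gate and with cells thinned to 1000 UMIs, and 3 without each class's top cell for the gene, where *Ccl2* turned to 1.51 and *Ccl8* to 2.34. *Ccl7* turned to 0.963 with a stricter gate, and *Ccl12* to 0.887 with the mean of the cells' own CPM and 0.929 with thinned cells. AngII over steady state (1 gene over 2 times higher) gave 4 in the band of 80 to 100 resident-marker UMIs per 10000, where *Ccl2* turned to 3.55, and 2 in the band of 200 or more. *Ccl7* turned to 0.904 with a stricter gate, 0.856 in the band of 150 to 200 and 0.713 in that of 200 or more, and *Ccl12* to 0.957 with a looser gate and 0.996 in the band of 150 to 200. *Yfp*+ over *Yfp*- (1 gene in each library) gave 0 at steady state with the mean of the cells' own CPM and with *Yfp* called before thinning, where *Ccl7* turned to 0.972. On AngII it gave 2 with at least 1000 detected genes, with the gate on thinned cells and with at least 2000 UMIs, and 0 with 2 EYFP UMIs for a call, and *Ccl8* turned to 0.875 with the mean of the cells' own CPM. Co-detection of *Ccl2* and *Ccl7* on AngII was 1.64 times when a gene counted from 2 UMIs. Of the lists, 5 instead of 13 genes were over 2 times higher in thinned cells, where fewer genes reach 20 UMIs. Of the 20 pairs of a chemokine and a like gene, 2 were kept with Spearman's rho and 9 with a pseudocount of 50. The causes of the other changes were not tested. The 26 other macrophages of the steady state and the median of 1092 UMIs on AngII limit these values.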
